A study of Mus musculus with 4 samples.

Results

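The chaperones of the endoplasmic reticulum (ER) and parts of the unfolded protein response (UPR) were followed through 10 genes: Hspa5, Hsp90b1, Dnajb9, Creld2, Pdia3, Pdia4, Pdia6, Xbp1, Herpud1 and Ddit3. They were chosen by gene symbol and are 10 of the 18193 genes that had a probe set, a group of short probes that gives 1 value, annotated to a single symbol. Of the 45101 probe sets on the array 21 carried 1 of these 10 symbols alone, and 19 of the 21 had a mean level at or above 3.74 on the log2 scale, the median of all probe sets and the filter used for genes. All 10 genes passed that filter, as did 11577 genes in all.

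The livers came from male mice of the inbred strain C57BL/6J at 4, 8, 13 and 21 months of age. All were fed a low-fat diet ad libitum, and the labels name no engineered allele and no other treatment. At each age the RNA of 6 livers was combined and hybridised to 1 oligonucleotide array, so an age is 1 pool and 1 array. The question was how liver expression differs between ages, and because no age has a second array no difference below could be tested and the spread between mice is unknown.

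Most of the proteins that hepatocytes secrete fold in the ER, where chaperones of the Hsp70 and Hsp90 families and protein disulfide isomerases act on the new chains. When unfolded chains build up, 3 sensors in the ER membrane, IRE1, PERK and ATF6, start the UPR, which raises transcription of chaperones and of the machinery that removes misfolded proteins. IRE1 splices the Xbp1 mRNA into the form that encodes an active transcription factor, ATF6 is itself cut into one, and PERK acts through the factor ATF4 and its target Ddit3.

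The liver label was checked with hepatocyte genes, and all 8 with a probe set of their own passed the filter, Alb at 13.43 to 13.49. The arrays were close to each other, with medians of 3.73 to 3.76. Over probe sets, which are no independent replicates, Pearson's r between arrays was 0.994 to 0.996. Values are log2 levels, on which a difference of 1 is 2-fold, and a level of 1 probe set cannot be set against that of another. Differences are given as older minus younger.

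The chaperones of the ER lumen spanned narrow ranges over the 4 ages. Hspa5 encodes BiP, the Hsp70 chaperone that also holds the UPR sensors inactive, and its log2 levels were 11.53, 11.61, 11.36 and 11.73 at 4, 8, 13 and 21 months. Hsp90b1 encodes GRP94, the Hsp90 chaperone of the ER, and was at 9.94, 9.93, 9.90 and 10.16 in the same order. Both were lowest at 13 and highest at 21 months, over ranges of 1.29-fold and 1.20-fold. The second probe set of Hsp90b1, at 9.69, 9.71, 9.83 and 10.07, was not lowest at 13 months. The dimmest probe set of Hspa5, at 8.06, 8.17, 7.97 and 7.90, was lowest at 21 months. Dnajb9 encodes ERdj4, a J-domain partner of BiP that also restrains IRE1, and was at 10.07, 9.81, 9.53 and 10.12. Creld2, a UPR-induced ER protein with disulfide isomerase activity, was at 8.00, 8.36, 7.91 and 8.28. Dnajb9 had the widest range of the 10 genes, 1.51-fold, with similar levels at 4 and 21 months and a low at 13 months, and Creld2 alternated between lower levels at 4 and 13 months and higher ones at 8 and 21 months.

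The promoters of the 10 genes were read for response elements of the UPR, to see what their sequences share. The ER stress element, bound by ATF6 together with NF-Y, is CCAAT, any 9 bases and CCACG. On either strand it was present in the 250 bases before the start of 4 of the 10 genes, Hspa5, Hsp90b1, Creld2 and Pdia6, and in 0.113% of 32851 mouse promoters of that length. Hsp90b1 held it at 2 positions. The element was not particular to the 10 genes. It was in 13.0% of 23 promoters of further ER chaperone and folding genes, those of Calr, Canx and Dnajc3. Of 19 promoters of ER-associated degradation genes 10.5% held it, those of Derl3 and Syvn1, and of 19 of disulfide formation 0.0%. The related ER stress element II, ATTGG, any base and CCACG, was found in Herpud1 and in 0.0304% of all promoters. Herpud1 also held the C/EBP-ATF site, TGATG, any base and AA, the kind of site that ATF4 binds, which 3.45% of all promoters hold. The XBP1 and ATF6 site, TGACG followed by TGG, was in none of the 10 windows and in 0.563% of all promoters. It was in 0.0% of the promoters of further chaperone and folding genes, and in 10.5% each of those of disulfide formation and ER-associated degradation. Its shorter core ACGTGG was in Dnajb9, Herpud1 and Pdia6 and in 6.91% of promoters, and in Herpud1 it overlaps the ER stress element II. The core was not particular to the 10 genes either. In the same 3 lists 13.0%, 36.8% and 26.3% of promoters held it. No match in Xbp1, Pdia3, Pdia4 or Ddit3 says only that these letters are not in the window. The stretches that hold the matches, from RefSeq on GRCm38.p6, are shown from 5′ to 3′ on the strand of the gene, with the fixed bases of both stress elements and of the C/EBP-ATF site in capitals.
Hspa5, chr2:34772010-34772058, plus strand: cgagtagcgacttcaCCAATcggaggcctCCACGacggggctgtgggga
Hsp90b1, chr10:86705518-86705671, minus strand: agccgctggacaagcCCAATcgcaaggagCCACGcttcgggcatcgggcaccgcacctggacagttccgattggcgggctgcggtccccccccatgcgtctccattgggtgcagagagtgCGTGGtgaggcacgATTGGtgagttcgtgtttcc
Creld2, chr15:88819505-88819553, plus strand: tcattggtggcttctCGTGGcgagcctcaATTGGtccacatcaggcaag
Pdia6, chr12:17266476-17266524, plus strand: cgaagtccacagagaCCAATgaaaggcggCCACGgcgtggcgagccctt
Herpud1, chr8:94386302-94386402, plus strand: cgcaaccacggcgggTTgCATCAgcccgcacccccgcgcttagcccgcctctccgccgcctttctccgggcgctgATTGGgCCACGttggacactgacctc

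The element lies 65 to 47 bases before the start of Hspa5 and 98 to 80 bases before that of Pdia6, both in the forward direction. In Creld2 it lies 126 to 108 bases before the start in the reverse direction. A match of letters is a description of the sequence and not evidence that a factor is bound in these livers.

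**Figure D1:**
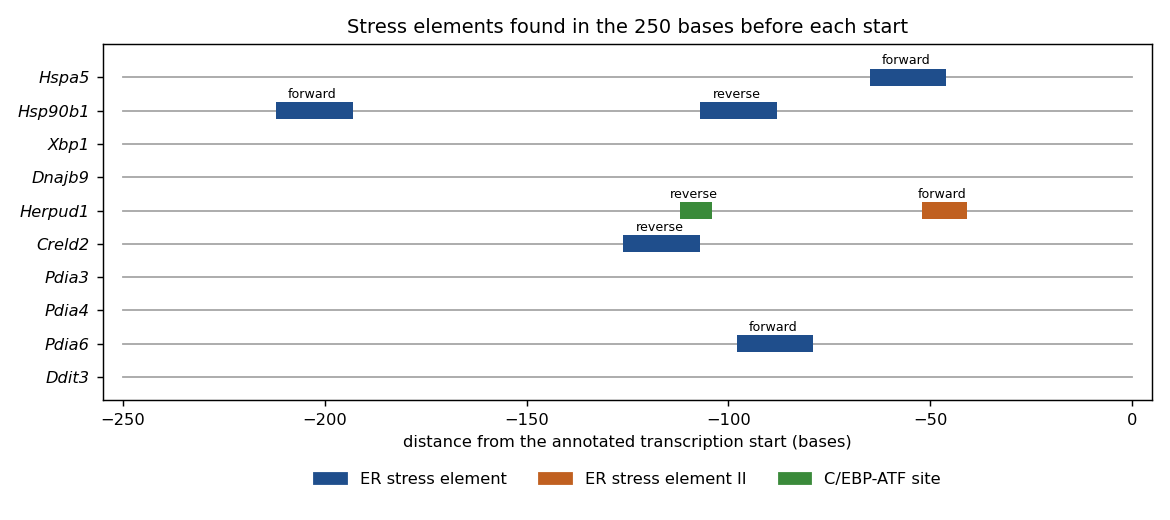
Stress elements in the 250 bases before the annotated start of each of the 10 genes, with distance from the start in bases on the x axis. Coloured blocks are matches and the words give their direction. Hspa5, Hsp90b1, Creld2 and Pdia6 hold the ER stress element, Hsp90b1 at 2 positions, and Herpud1 holds the ER stress element II and the C/EBP-ATF site.

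The protein disulfide isomerases did not share a profile. Pdia3 encodes ERp57, which forms disulfide bonds in glycoproteins bound to calnexin and calreticulin, and was at 10.32, 10.42, 10.54 and 10.60 at 4, 8, 13 and 21 months. It was the only gene of the 10 that was higher at every age than at the one before, though a second probe set of Pdia3, at 5.01, 5.12, 4.99 and 5.18, did not show this order. Pdia6, another disulfide isomerase of the lumen, was at 9.43, 9.59, 9.44 and 9.68. Pdia4, which encodes the disulfide isomerase ERp72, was at 7.22, 7.16, 7.37 and 7.11. Pdia4 ran against the others, with its highest level at 13 months and its lowest at 21 months. The second probe sets of Pdia4 and Pdia6 were below the filter, at 2.66 to 2.77 and 3.21 to 3.32.

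By the probe set used for each gene, the regulators and the degradation factor were at their lowest at 13 months, Xbp1 equally at 4 months. Xbp1 encodes the transcription factor of the IRE1 branch and was at 10.78, 11.00, 10.78 and 11.06. The labels do not state whether its probe sets read the spliced mRNA, the unspliced one or both. Herpud1, an ER membrane protein of the degradation machinery, was at 11.67, 11.62, 11.29 and 11.63. Ddit3 encodes CHOP, a transcription factor of the PERK branch that promotes cell death under lasting stress, and was at 5.74, 5.51, 5.29 and 5.67. Herpud1 and Ddit3 were highest at 4 months and lowest at 13 months, while Xbp1 had equal levels at 4 and 13 months and higher ones at 8 and 21 months. The second probe set of Herpud1 was also lowest at 13 months, at 10.76, but that of Ddit3 was lowest at 8 months, at 4.09. The further probe sets of Xbp1 were lowest at 4 months, at 10.44, at 13 months, at 8.92, and at 21 months, at 5.31.

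**Figure D2:**
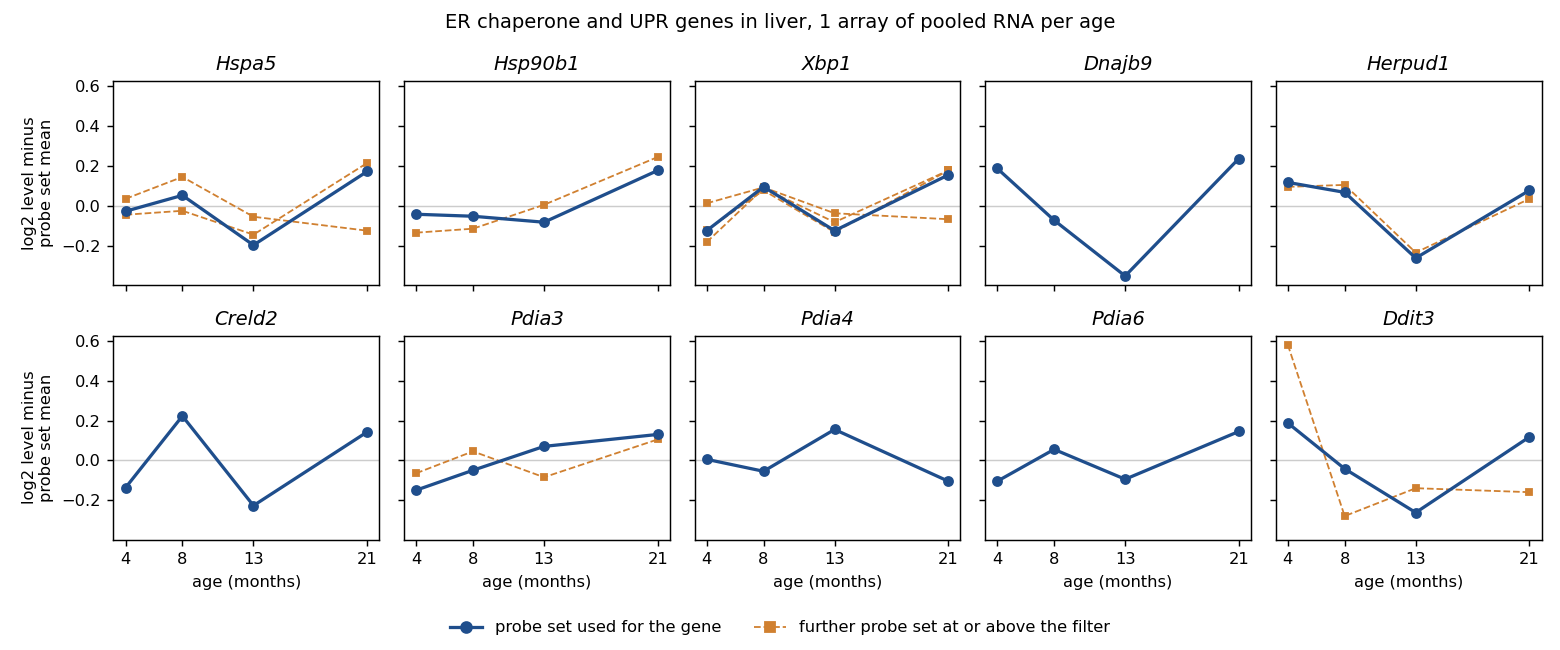
Log2 level of each gene at 4, 8, 13 and 21 months, as the deviation from the probe set's own mean, 1 array per age. Blue circles are the probe set used for the gene and orange squares further probe sets at or above the filter. Of the blue lines 6 have their lowest point at 13 months, beside Xbp1 with equal lows at 4 and 13 months, and 6 their highest at 21 months, and the third probe set of Hspa5, the dimmest of Xbp1 and the second ones of Hsp90b1, Pdia3 and Ddit3 depart from the blue line.

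At 21 vs 4 months, the whole span of age, none of the 10 genes was 1.5-fold higher or lower, where 2.10% of the 11577 genes passed 1.5-fold upward and 0.423% downward. In sign 7 of the 10 were above 0, as were 51.4% of all genes, and 3 were below 0, as were 45.2%. The median over the 10 genes was 0.21, against 0.01 over all genes. Xbp1, Creld2 and Pdia3 were each higher by 0.28 at 21 months, Pdia6 by 0.25, Hsp90b1 by 0.22 and Hspa5 by 0.20. These 6 differences, 1.15-fold to 1.21-fold, lie close together. Dnajb9 differed by 0.05, Herpud1 by -0.04, Ddit3 by -0.07 and Pdia4 by -0.11. All 10 lay within the middle 90% of the differences of all genes, -0.27 to 0.37.

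Further probe sets give a measure of how far the 21 vs 4 months values depend on the probes. Of the 9 further probe sets above the filter 7 had the sign of the probe set used, with a median gap of 0.11. Dnajb9 and Creld2 have no further probe set and those of Pdia4 and Pdia6 are below the filter, so these genes are not among them. The second probe set of Hsp90b1 was higher by 0.38, and those of Hspa5 were at 0.26 and -0.16. For Xbp1 they were at 0.36, 0.30 and -0.08. The second probe set of Ddit3 was at 4.95, 4.09, 4.23 and 4.21 at the 4 ages, so its difference at 21 vs 4 months was -0.74 where that of the brighter one was -0.07. With the dimmest probe set above the filter taken for every gene, the median over the 10 genes at 21 vs 4 months was -0.005, so the sign of the median rests on the brighter probe sets. This rule could not alter Dnajb9, Creld2, Pdia4 and Pdia6 in any pair of ages.

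At 8 vs 4 months 5 of the 10 genes were above 0 and 5 below, beside 47.5% and 48.7% of all genes. The median was 0.035. None was 1.5-fold higher or lower, where 0.501% and 0.354% of all genes were. Creld2 was higher by 0.36, above the 95th percentile of all genes at 0.28, Xbp1 by 0.22 and Pdia6 by 0.16. Dnajb9 was at -0.26 and Ddit3 at -0.23. The second probe set of Ddit3 was at -0.86, which is past 1.5-fold.

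The 13-month array stood lowest for most of the genes. At 13 vs 8 months 8 of the 10 genes were below 0, as were 45.9% of all genes, and 2 above, as were 50.2%. The median was -0.22, against 0.01 over all genes. None was past 1.5-fold, where 0.717% of all genes were higher and 0.363% lower. Creld2 was at -0.45, Herpud1 at -0.33 and Dnajb9 at -0.28, all below the 5th percentile of all genes, -0.26. Hspa5 was at -0.25, Xbp1 and Ddit3 both at -0.22, Pdia6 at -0.15 and Hsp90b1 at -0.03. Pdia3 and Pdia4 had the opposite sign, 0.12 and 0.21. Of the 9 further probe sets above the filter, 6 had the sign of the probe set used at 13 vs 8 months. The second probe sets of Pdia3, Ddit3 and Hsp90b1 had the other sign, at -0.13, 0.14 and 0.12.

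At 21 vs 13 months 9 of the 10 genes were above 0, as were 50.4% of all genes, and only Pdia4, at -0.26, was below, as were 46.4%. The median was 0.31, against 0.01. Dnajb9, which has a single probe set, was higher by 0.59, which is 1.51-fold and the only value of the 10 past 1.5-fold. Of all genes 1.47% passed 1.5-fold upward and 0.458% downward. With quantile normalization of the arrays Dnajb9 was at 0.55, and with cyclic loess at 0.57, both under 1.5-fold. Ddit3 was higher by 0.38, Hspa5 and Creld2 each by 0.37, Herpud1 by 0.34, Xbp1 by 0.28, Hsp90b1 by 0.26, Pdia6 by 0.24 and Pdia3 by 0.06. Dnajb9, Ddit3, Hspa5 and Creld2 lay above the 95th percentile of all genes, 0.36. Of the 9 further probe sets above the filter 6 had the sign of the probe set used. With the dimmest one above the filter taken for every gene 6 of the 10 genes were above 0 and 4 below, with a median of 0.215. Hspa5 was then at -0.07, Xbp1 at -0.03 and Ddit3 at -0.02. The 13 vs 8 and 21 vs 13 months comparisons share the 13-month array with opposite signs, so a deviation of that pool gives opposite differences in both. Against the mean of 4 and 8 months, a baseline that was added once the values were known, the 21-month median was 0.165.

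**Figure D3:**
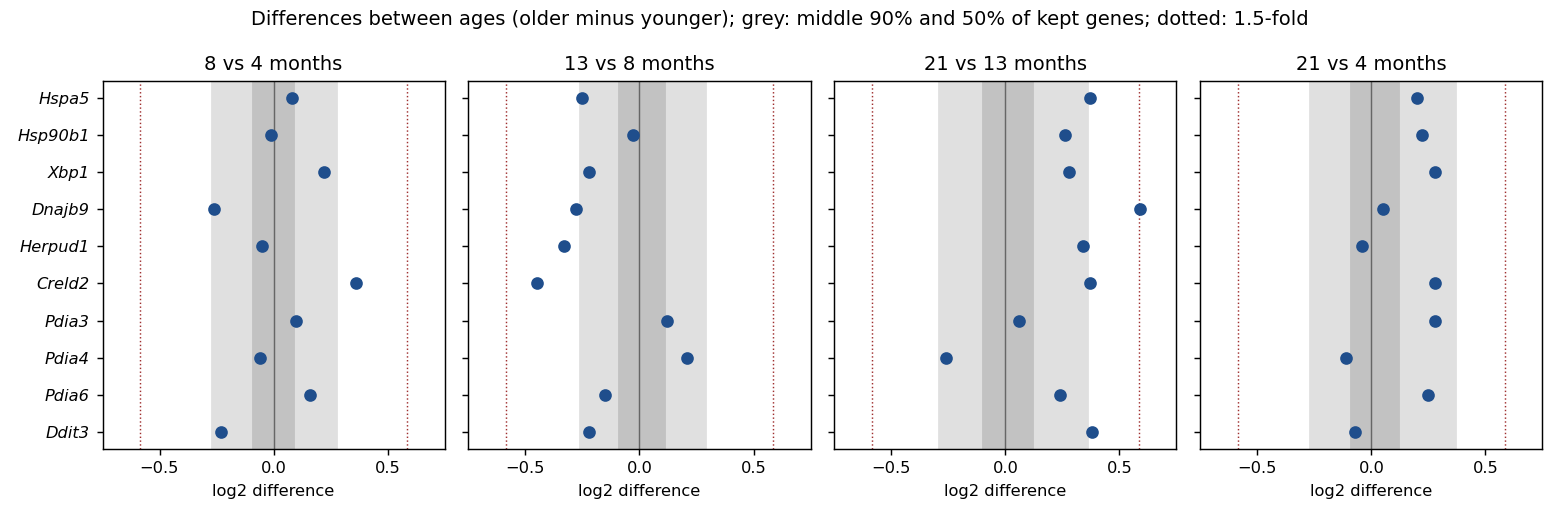
Log2 differences of the 10 genes for 4 pairs of ages, older minus younger. Light and dark grey mark the middle 90% and 50% of the differences of 11577 genes and dotted lines mark 1.5-fold. The points lie mostly left of 0 at 13 vs 8 months and right of 0 at 21 vs 13 months, with Pdia4 on the other side in both.

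Each age was also set against the mean of the other 3, a description added after the data were seen. At 13 months the median over the 10 genes was -0.215, against 0.003 over all genes, and 5 of the 10 lay below the 5th percentile of all genes. These 5 were Dnajb9 at -0.47, Herpud1 and Ddit3 both at -0.35, Creld2 at -0.30 and Hspa5 at -0.26. At 21 months the median was 0.192, against 0.01 over all genes, and 9 of 10 were above 0, as were 52.7% of all genes. At 4 and 8 months the medians were -0.047 and 0.007. Of the 10 genes 6 had their lowest level at 13 months, as did 22.1% of all genes, and 6 their highest at 21 months, as did 30.4%. In these counts a tie, as in Xbp1, went to the younger age.

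The remaining pairs of ages show where the genes part. At 13 vs 4 months 3 of the 10 genes were above 0 and 6 below, beside 51.1% and 45.5% of all genes. Dnajb9 was at -0.54, Ddit3 at -0.45 and Herpud1 at -0.38, each below the 5th percentile of -0.27. Pdia3 at 0.22 and Pdia4 at 0.15 were above 0, and Xbp1 and Pdia6 were at 0.00 and 0.01. Of the 9 further probe sets above the filter 4 had the sign of the probe set used at 13 vs 4 months. Those of Xbp1 could not, because the value of the probe set used was 0.00. The second probe sets of Hsp90b1 and Pdia3 had the other sign, at 0.14 and -0.02. At 21 vs 8 months 8 of 10 were above 0 and 2 below, beside 51.7% and 45.4% of all genes, with Dnajb9 at 0.31, Hsp90b1 at 0.23 and Creld2 at -0.08. None of the 10 was past 1.5-fold in these pairs, where 0.838% of all genes were higher and 0.458% lower at 13 vs 4 months, and 2.66% and 0.700% at 21 vs 8 months. Of the 9 further probe sets above the filter 6 had the sign of the probe set used at 21 vs 8 months. With the dimmest one above the filter taken for every gene, 5 of the 10 genes were above 0 and 5 below in that pair. The median was then 0.005, with Hspa5 at -0.27 and Xbp1 at -0.16.

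Clock genes, which follow the hour of the day, also differed between ages. Of the 13 clock genes above the filter 10 were below the mean of the other ages at 4 months, as were 52.3% of all genes. At that age 8 of the 13 had their lowest level, as did 24.7% of all genes. At 13 months 9 of the 13 were above that mean, as were 50.4% of all genes, and 4 below, as were 48.7%. The list's median was 0.17 at 8 vs 4 months, with 3 genes at least 1.5-fold higher, 0.05 at 13 vs 8 months, with none, and -0.25 at 21 vs 13 months, with 1 lower. Of all genes 0.501% were 1.5-fold higher at 8 vs 4 months and 0.458% were 1.5-fold lower at 21 vs 13 months. Dbp, a clock output factor, was at 7.98, 9.07, 9.14 and 8.79 at 4, 8, 13 and 21 months. Ciart, a clock repressor, was at 4.98, 5.93, 5.82 and 5.54, and Per3 at 5.08, 5.79, 5.93 and 5.68. All 3 were lowest at 4 months. Arntl, which encodes the clock activator BMAL1, was at 6.09, 5.66, 5.44 and 5.85, and Nfil3, a clock-controlled repressor, at 6.54, 6.20, 5.98 and 6.38. Both were highest at 4 months and lowest at 13 months, as was Clock, at 6.99, 6.74, 6.58 and 6.72. The period gene Per2 was at 5.24, 5.36, 5.84 and 5.24, highest at 13 months. The labels do not state the hour of collection, and its part in the levels of the ER genes was not tested.

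Genes that respond to feeding and fasting had a list median of -0.07 at 21 vs 13 months. Of the 11 genes 5 were above 0 and 6 below, beside 50.4% and 46.4% of all genes. The fasting-induced genes Pdk4 and Fgf21 were at -0.98 and -0.82 and Angptl4 at -0.37, while Cpt1a, Pck1, Igfbp1 and G6pc were at 0.07, 0.01, -0.07 and -0.10. The lipogenic genes Fasn, Thrsp and Srebf1 were higher by 0.70, 0.51 and 0.34. At 21 vs 4 months Thrsp, Srebf1 and Fasn were higher by 0.98, 0.90 and 0.66, and Angptl4 was at -0.67. Igfbp1 was at -0.68 at 8 vs 4 months. The part of feeding state in the levels of the ER genes was not tested either.

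Markers of other cell types were measured beside these genes. All 13 macrophage and Kupffer cell markers were higher at 21 than at 4 months, as were 51.4% of all genes. Past 1.5-fold upward were 9 of these 13, beside 2.10% of all genes. The log2 of the summed level of the macrophage and Kupffer cell markers was 11.73, 11.31, 11.81 and 12.51 at the 4 ages. Plasma cells express Xbp1 and ER chaperones at high levels. Of 10 plasma cell and B cell markers with a probe set 7 passed the filter, with a log2 summed level of 9.70, 9.71, 10.01 and 10.39. The brightest was Sdc1, at 9.42, 9.29, 9.60 and 9.77, which hepatocytes express too. Ighm, the heavy chain of IgM, was 2.84 higher at 21 than at 4 months and Jchain 1.58 higher, Sdc1 differed by 0.35, and Cd79b, Ms4a1, Derl3 and Mzb1 by 0.06 to 0.19. Mzb1, an ER protein of plasma cells, was at 4.08, 4.14, 4.12 and 4.14, and the plasma cell receptor Tnfrsf17 was below the filter. The hepatocyte markers had a log2 summed level of 15.42 to 15.51. In bulk RNA a change in the number of cells of a type and a change in RNA per cell cannot be told apart, and the part of these cells in the levels of the 10 genes was not tested. Among the other lists, neutrophil markers had a log2 summed level of 7.15, 7.34, 7.49 and 8.37. At 21 vs 4 months Prtn3, S100a9 and S100a8 were higher by 2.73, 1.45 and 1.35. Ltf and Ngp were higher by 0.28 and 0.19 and Elane was at -0.11. Ltf was highest at 8 months, at 5.22, and 2 of the 8 neutrophil markers with a probe set were below the filter. Stellate cell markers were at 10.61, 10.60, 10.67 and 10.91 and sinusoidal endothelium at 10.12, 10.03, 10.02 and 10.17. The brightest stellate marker, Dcn, was higher by 0.44 at 21 vs 4 months, while Lum and Lrat were each at 0.04 and Des at -0.10. Of the cholangiocyte and exocrine pancreas markers only 2 of 5 and 2 of 6 passed the filter.

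The wider ER machinery was described through 6 lists with 145 genes, of which 131 passed the filter. At 21 vs 4 months 92 of the 131 were above 0 and 37 below, beside 51.4% and 45.2% of all genes. The median of the 131 was 0.07, and 1 was at least 1.5-fold higher and none lower. That 1 is 0.76%, beside 2.10% of all genes. At 21 vs 13 months 97 were above 0 and 32 below, beside 50.4% and 46.4% of all genes. The median was then 0.10, with 2 at least 1.5-fold higher, which is 1.53% beside 1.47% of all genes. At 13 vs 8 months the median was -0.01, with 54 above 0 and 70 below, beside 50.2% and 45.9% of all genes.

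All 6 lists had medians above 0 at 21 vs 4 months, those of folding and transport from 0.04 to 0.115. Of all genes 51.4% were above 0 and 45.2% below in this pair of ages. Of 31 genes of translocation into the ER and export from it, 27 were above 0 and 3 below, with a median of 0.10. Ostc, a subunit of oligosaccharyltransferase, was higher by 0.37, the signal peptidase subunit Spcs2 by 0.35 and the COPII coat gene Sec23b by 0.24, while the translocon-associated Ssr4 was at -0.10 and Ssr1 and Sec62 were both at -0.02. Of 22 further chaperones and folding factors 14 were above 0 and 8 below, with a median of 0.115. Fkbp14, a prolyl isomerase, was at 4.84 at 21 months against 4.21 at 4 months, a difference of 0.63. The secreted ER protein Manf was higher by 0.39 and the BiP partner Sdf2l1 by 0.29, while the prolyl isomerases Fkbp11 and Ppib were at -0.41 and -0.13 and Cnpy2 at -0.08. Over 16 genes of disulfide formation the median was 0.04, with 11 above 0 and 5 below. The highest were Txndc11 at 0.37, Tmx3 at 0.32 and the sulfhydryl oxidase Qsox1 at 0.27, and the lowest were Prdx4 and Creld1, both at -0.15, and Tmx4 at -0.10.

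Degradation and signalling genes had lists with medians of 0.03 to 0.06 at 21 vs 4 months. The 27 genes of ER-associated degradation had a median of 0.06, with 19 above 0 and 8 below, beside 51.4% and 45.2% of all genes. Syvn1, the ubiquitin ligase HRD1, was at 8.50, 8.40, 8.20 and 8.74, and its partner Sel1l at 8.49, 8.46, 8.26 and 8.67. Both were lowest at 13 and highest at 21 months. Syvn1 was higher by 0.24 at 21 vs 4 months, the lectin Erlec1 by 0.19 and Sel1l by 0.18, and Faf2 was at -0.16, Nploc4 at -0.11 and Man1b1 at -0.09. The 11 sensors and transducers had a median of 0.04 at 21 vs 4 months, with 6 above 0 and 5 below. At 21 vs 13 months 2 of them were past 1.5-fold upward, as were 1.47% of all genes. Eif2ak3, which encodes PERK, was at 6.36, 6.10, 5.93 and 6.59, higher by 0.66 at 21 vs 13 months. Creb3l2, a membrane-bound transcription factor of the ATF6 type, was at 6.29, 5.97, 5.68 and 6.42, higher by 0.74, and it was at -0.61 at 13 vs 4 months. The sensors Ern1, which encodes IRE1, and Atf6 were at 0.19 and 0.00 at 21 vs 13 months. Atf6b was higher by 0.32 at 21 vs 4 months, Eif2ak3 by 0.23 and Creb3l2 by 0.13, and Creb3l1 was at -0.23, Creb3l3 at -0.09 and the protease gene Mbtps2 at -0.07. Over 24 genes of the PERK and ATF4 branch the median was 0.03 at 21 vs 4 months. Above 0 were 15 and below 8, beside 51.4% and 45.2% of all genes. Chac1, a glutathione-degrading target of ATF4, was higher by 0.48 at 21 vs 4 and by 0.61 at 21 vs 8 months, and Aars and Trib3 were higher by 0.23 and 0.18 at 21 vs 4 months. Atf4 itself was at 0.05 at 21 vs 4 months, Sesn2 at -0.11, Asns at -0.16 and Phgdh at -0.26.

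Chaperones of the cytosol, which answer mainly to the heat shock factor HSF1, are set beside them. At 21 vs 4 months the 10 ER genes had a median of 0.21 and the heat shock list, with 19 cytosolic and mitochondrial genes, a median of -0.14. Of the 19 genes 17 were below 0 and 2 above, beside 45.2% and 51.4% of all genes. At least 1.5-fold lower were 2, the inducible Hsp70 genes, beside 0.423% of all genes. Hspa1b was at 9.94, 9.95, 8.40 and 8.66 at the 4 ages and Hspa1a at 4.75, 4.70, 4.06 and 4.15. Both were lower at 13 and 21 months than at 4 and 8 months. Hsph1 and Hspb1 were both at -0.43 at 21 vs 4 months, Hspb1 also at -0.81 at 21 vs 8 months, and Cryab at 0.12, Hspb8 at 0.09 and Chordc1 at -0.03 were the highest. At 21 vs 13 months the median of the ER genes was 0.31 and that of the heat shock list -0.05. With 1 array per age the difference between the groups of genes was not tested.

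**Figure D4:**
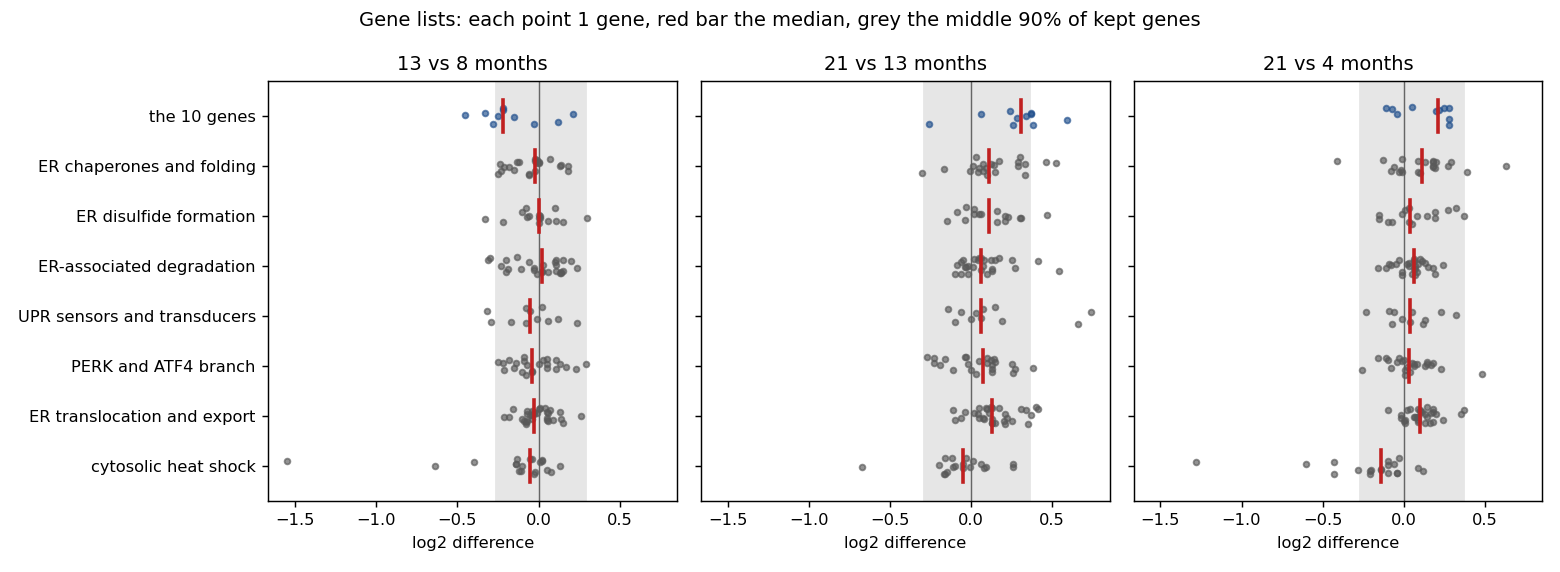
Log2 differences of single genes in the 10 ER genes, the 6 wider ER lists and the heat shock list, for 13 vs 8, 21 vs 13 and 21 vs 4 months, older minus younger. Each point is 1 gene above the filter, red bars are medians and grey marks the middle 90% of all genes. At 21 vs 4 months the median of the 10 genes lies at 0.21 and that of the heat shock list at -0.14.

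Genes with profiles like those of Hspa5 and Creld2 were looked for among 627 genes whose range over the 4 ages was at least 1.5-fold, by the root mean square distance between profiles centred on their own means. Nearest to Hspa5 were Zfp51 and Nop58, both at 0.082, Alg2 at 0.087, Tnfaip3 at 0.108 and Ypel2 at 0.113. Each was lowest at 13 and highest at 21 months. The distance counts size as well as shape, and Hspa5 itself spanned 0.37, less than the range asked of these genes. The other 9 ER and UPR genes were not held to that range, so their distances, 0.065 for Xbp1 to 0.231 for Pdia4, cannot be set against those of the named genes. Nearest to Creld2 were Ppm1h at 0.057, Cd244a at 0.062, Arrdc3 at 0.083, Bhlhe40 at 0.098 and Socs3 at 0.099. The levels of Ppm1h, 3.66 to 4.26, and Cd244a, 3.75 to 4.35, also lay near the filter. With 4 arrays many profiles are alike, and the distance describes these arrays only.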

How the data were processed

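Liver RNA of male mice was measured on 4 arrays, 1 for each of 4 ages, each from a pool of 6 mice per the series description. The deposited values are log2 expression values per probe set, made by the authors with RMA per the submitters' processing notes. No source used here gives the RMA version, the probe set definition or the arrays it was run on. RMA draws arrays together and compresses differences of dim probe sets, and the number of arrays limits the precision.

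Names came from the annotation of the platform, where 34945 probe sets had 1 symbol. A gene took its probe set with the highest mean, and genes with a mean of at least 3.74, the median of all probe set means, were kept. The size rule was 1.5-fold. No test between ages was run. Named genes were all 10 members, pathway list genes past 1.5-fold in any pair of ages, the 3 highest and 3 lowest of each pathway list at 21 vs 4 months, and the 5 nearest profiles. Other genes named from the lists, cell type markers included, were chosen after their values were seen. The members and lists were chosen with earlier results of these data known. Older symbols in the lists were updated through a GRCm38.p6 gene table for 5 genes. Counting by the fold rule was checked on simulated data. Alternatives were other probe set rules, filters, scalings, thresholds and baselines. Tools were pandas 2.3.3 and numpy 2.4.6 on Python 3.11.15, with figures by matplotlib 3.10.9 and alternative scalings by limma 3.58.1 in R 4.3.3.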

Additional observations from a re-analysis of the deposited data

How the results depend on the processing

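No paired analysis was possible because each age has 1 array. Of 186 recomputed medians and counts over the 10 genes 172 kept their value, to within 0.1 on the log2 scale or 1.5 times for a count. Many of the 186 could not change. Leaving out the filter kept the same 10 genes, a fold threshold does not enter a median, and a mean over the genes does not alter a count. The share that kept its value is therefore no measure of stability. Averaging every probe set of a gene gave 1 gene at least 1.5-fold lower at 13 vs 4 months, where the reported count was 0. Of all genes 0.34% were that much lower under this rule. The lowest probe set above the filter gave 1 lower gene at 8 vs 4, at 21 vs 4 and at 13 vs 4 months. Under that rule 0.475%, 0.492% and 0.57% of all genes were 1.5-fold lower in these pairs. In each case the gene is Ddit3, through its second probe set. The lowest probe set also moved the 21 vs 4 months median to -0.005. Quantile normalization, cyclic loess and a 2-fold threshold each left 0 genes past the fold at 21 vs 13 months in place of 1, Dnajb9. A lower threshold, 0.32 on the log2 scale, gave 1 gene higher at 8 vs 4 months, 2 lower at 13 vs 8, 5 higher at 21 vs 13 and 3 lower at 13 vs 4. The 95th percentile of all genes was 0.28 at 8 vs 4 and 0.36 at 21 vs 13 months. The 5th percentile was -0.26 at 13 vs 8 and -0.27 at 13 vs 4 months. More than 5% of all genes were therefore past this threshold upward at 21 vs 13 months, and less than 5% in the other pairs and directions named. Against the mean of 4 and 8 months, added after the data were seen, the 21-month median was 0.165 and 0 genes were past 1.5-fold. Why probe sets of 1 gene gave different values was not tested. Under other probe set rules, filters and scalings 2 of the 10 genes changed sign at 21 vs 4 months, Hspa5 and Xbp1, 2 at 8 vs 4 months, and 3 in each of the other 4 pairs of ages. Detection calls were not used here, so dim probe sets cannot be told from background.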
